A study of Brassica rapa with 5 samples.

Results

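Leaves of Brassica rapa exposed to Cd were compared directly with leaves of plants kept short of Fe, without passing through the plants on normal supply. The 2 samples are the tables titled for Cd exposure and for Fe deficiency, 2 of the 5 in the series, and the members compared are the 10825 genes with a mean of at least 5 TPM over these 2 tables, out of 27239 genes listed in either and 29183 listed in any. TPM here means tags per 1000000 clean tags. All plants were accession R-o-18 in hydroponics, grown for 14 days on normal supply (3 µM Fe, 2 µM Zn, no Cd) and then treated for 7 days. Cd-exposed plants received 1 µM Cd. Fe-deficient plants received 0.05 µM Fe. The other 3 conditions, used below only to place the 2, were Zn deficiency (0.005 µM Zn), Zn excess (50 µM Zn) and continued normal supply. Plant age is given only through these days. Each condition had 3 replicates of 3 pooled plants per the labels, and RNA came from the first expanded leaves, taken whole. In such bulk tissue, fewer cells of a type and less RNA per cell cannot be told apart.

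Fe is a cofactor of photosynthetic electron transport, of haem proteins and of Fe-S proteins, and Fe-starved leaves turn chlorotic. Cd has no known role in this species. In Arabidopsis, Cd can enter root cells through the Fe transporter IRT1, and Cd-treated plants are known to show chlorosis that resembles Fe shortage. The question addressed is whether leaves under Cd look Fe-deprived at the transcript level. None of the 29183 gene identifiers matched the RefSeq table at hand and the deposited tables do not pair identifiers with names, so genes are given by identifier only, without function, sequence or position, and the leaf label was not checked against marker genes.

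Each condition was deposited as 1 table of means over 3 libraries. Library totals recovered from the 2 deposited columns were 5691069 to 5833686 clean tags under Cd exposure and 5640664 to 5997199 under Fe deficiency. Genes held 54.0% of clean tags under Cd exposure and 58.6% under Fe deficiency. The spread between libraries of a gene at 5 to 30 TPM, recovered from the difference between the columns and given as a coefficient of variation, was 19.9% under Cd exposure and 24.8% under Fe deficiency, where counting alone gives 12.8% under Cd exposure and 12.6% under Fe deficiency. This recovered spread, moderated across genes with limma, gave the standard errors (SE) and the p-values, which are adjusted by Benjamini-Hochberg over all 10825 genes. Per the labels a replicate is a pool of plants, so p-values measure the spread between pools. That spread was scaled by level and averaged over the 5 conditions, so it is not a gene's own spread in these 2 conditions alone.

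Leaves under Cd exposure and Fe-deficient leaves differed in many transcripts, and lower values under Cd exposure were the more frequent. Of the 10825 genes, 196 (1.81%) exceeded their Fe deficiency value 2-fold or more under Cd exposure on the log2(TPM + 1) scale, and 1067 (9.86%) lay 2-fold or more below it. The other 9562 (88.3%) lay within 2-fold. At an adjusted p under 0.05 (limma), 622 genes (5.75%) were higher and 2488 (23.0%) lower, whatever their size. All 196 of the 2-fold higher genes and 1060 of the 1067 lower ones passed that test. At 4-fold, 33 genes were higher and 197 lower, and at 8-fold 19 were higher and 48 lower.

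The excess of lower genes was read beside a general shift between the tables. The median difference, Cd exposure minus Fe deficiency, was -0.24 on the log2 scale, and 68.5% of genes lay below 0. The TPM assigned to genes, summed over each table, differed by -0.12 on this scale. Median-of-ratios size factors removed a shift of -0.26 and left 378 higher and 697 lower genes at 2-fold. The share of higher genes among those 2-fold apart was then 35.2%, in place of 15.5%. At an adjusted p under 0.05 (limma) the size factors gave 1273 higher and 1351 lower genes. These factors centre the difference at about 0 by construction and move every gene upwards, so the balance of these counts follows from the centring. Genes at low TPM move less, because 1 TPM is added after the scaling. Which scale reflects RNA per leaf was not tested.

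The shift was not the same at all levels. Genes with a mean of 5 to 20 TPM had a median difference of -0.28 and genes at 20 to 100 TPM one of -0.19, whereas the 703 genes at 100 to 1000 TPM and the 65 above 1000 TPM had medians of 0.01 and -0.01. Genes above 1000 TPM made up 31.4% of the gene-assigned TPM under Cd exposure and 28.0% under Fe deficiency. Genes at 5 to 20 TPM made up 11.4% under Cd exposure and 13.1% under Fe deficiency. The share of genes at least 2-fold lower was 10.2% at 5 to 20 TPM, 9.54% at 20 to 100 TPM and 8.68% at 100 to 1000 TPM, and no gene above 1000 TPM was 2-fold lower. Size factors, which move every gene upwards, therefore place the medians of the most abundant genes above 0 on the log2 scale. With them, 200 genes were 2-fold higher and 425 lower at 5 to 20 TPM, and 121 higher and 224 lower at 20 to 100 TPM. At 100 to 1000 TPM 54 were then higher and 48 lower, so the excess of lower genes at that level depends on the scale.

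**Figure D1:**
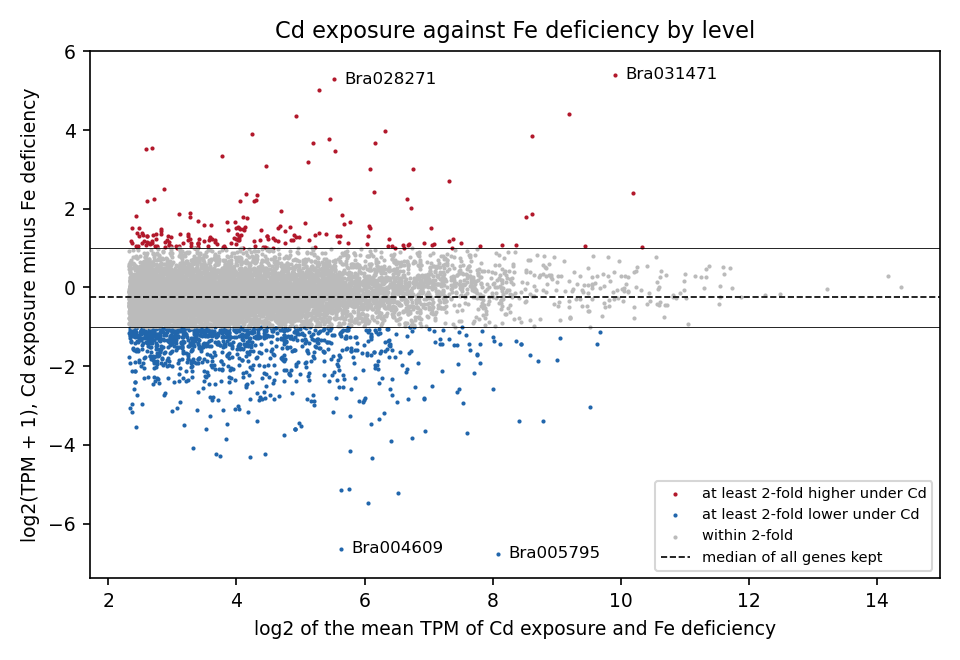
Difference in log2(TPM + 1), Cd exposure minus Fe deficiency, against the log2 mean TPM of the 2 tables, with 1 point per gene for the 10825 genes compared; red points are the 196 genes higher and blue points the 1067 genes lower by 2-fold or more under Cd exposure, and the dashed line is the median, -0.24. On the deposited TPM, lower genes outnumber higher ones up to 1000 TPM (61 against 23 at 100 to 1000 TPM), and the median nears 0 above 100 TPM. With size factors, not drawn here, 48 genes are lower and 54 higher at 100 to 1000 TPM.

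The lower genes were moderately expressed and together made up a sizeable share of the Fe-deficient profile. Their median level was 6.47 TPM under Cd exposure and 21.1 TPM under Fe deficiency, with a median log2 difference of -1.38. They summed to 2.94% of the gene-assigned TPM under Cd exposure and 9.08% under Fe deficiency. The higher genes had a median of 25.3 TPM under Cd exposure and 7.9 TPM under Fe deficiency (median log2 difference 1.28), and summed to 3.55% of the gene-assigned TPM under Cd exposure and 0.945% under Fe deficiency. Tag numbers were fractional in at least 1 of the 2 conditions in 31.6% of the higher genes, 33.7% of the lower genes and 33.2% of all genes compared. Fractional here means not whole when multiplied by 3. Tags divided among similar genes would take this form, which was not tested.

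Few genes were near-absent in 1 condition and abundant in the other. Among the genes compared, 16 lay under 1 TPM in Cd exposure, 2 of them at 0 tags, and 2 lay under 1 TPM in Fe deficiency, none at 0. Without the 5 TPM minimum, 1197 genes were listed only under Cd exposure (median 0.116 TPM) and 1800 only under Fe deficiency (median 0.118 TPM). The 1800 include the 2 compared genes at 0 tags under Cd exposure. Of the genes listed in only 1 condition, 7 reached 1 TPM under Cd exposure and 55 under Fe deficiency.

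The gene with the largest positive difference was Bra031471, at 1883 TPM under Cd exposure, against 43.5 TPM under Fe deficiency, a 43.3-fold higher value (log2 difference 5.40, SE 0.27, limma adjusted p 1.59e-07). Its own recovered SD was 461 TPM under Cd exposure and 28.4 TPM under Fe deficiency, both rough estimates. The SD under Fe deficiency was large beside the mean of 43.5 TPM. The SE and the p-value rest on the moderated spread averaged over the conditions, not on these SDs alone. The gene stood at 1665 TPM under Zn deficiency, 75.1 TPM under Zn excess and 1231 TPM on normal supply. Cd exposure, Zn deficiency and normal supply were thus high and Fe deficiency and Zn excess low. Its tag numbers held fractions, the form that tags divided among similar genes would take.

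Bra028271 was the next, at 90.7 TPM under Cd exposure, against 1.34 TPM under Fe deficiency, a 67.4-fold higher value (log2 difference 5.29, SE 0.26, limma adjusted p 1.59e-07). Its own recovered SD was 11.3 TPM under Cd exposure and 1.17 TPM under Fe deficiency, each from 1 degree of freedom. Bra028271 had 41.6 TPM under Zn deficiency, 2.07 TPM under Zn excess and 51.3 TPM on normal supply. As in Bra031471, Cd exposure, Zn deficiency and normal supply were high and Fe deficiency and Zn excess low. Its tags were whole, and the 24 tags of the 3 Fe deficiency libraries could be solved from the 2 columns as 2, 13 and 9 tags, in the order of rising library totals. These are 0.355, 2.18 and 1.5 TPM, all below the Cd exposure mean.

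The largest negative difference was that of Bra005795, at 3.93 TPM under Cd exposure, against 536 TPM under Fe deficiency, a 137-fold lower value (log2 difference -6.77, SE 0.36, limma adjusted p 3.11e-07). Its own recovered SD was 0.0155 TPM under Cd exposure and 224 TPM under Fe deficiency, each from 1 degree of freedom. The gene stood at 0.556 TPM under Zn deficiency, 358 TPM under Zn excess and 2.17 TPM on normal supply. Here Fe deficiency and Zn excess were the high conditions. It also had fractional tags.

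Bra004609 had no tag in the 3 Cd exposure libraries, against 98.8 TPM under Fe deficiency (1722 tags over the 3 libraries). Against a floor of 3 tags summed across the Cd exposure libraries (0.174 TPM), the value was at least 569.6-fold lower under Cd exposure. Its fitted log2 difference of -6.64 (SE 0.25, limma adjusted p 5.41e-07) depends on the pseudocount, as do the SE and the p-value, and is no bound. No spread was recovered for the gene under Cd exposure, so the p-value is not support for the fold bound. It was also at 0 tags under Zn deficiency and on normal supply, and at 114 TPM under Zn excess. The recovered spread between its libraries was wide, with an SD of 64.2 TPM in Fe-deficient plants and 85.8 TPM under Zn excess, each from 1 degree of freedom.

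**Figure D2:**
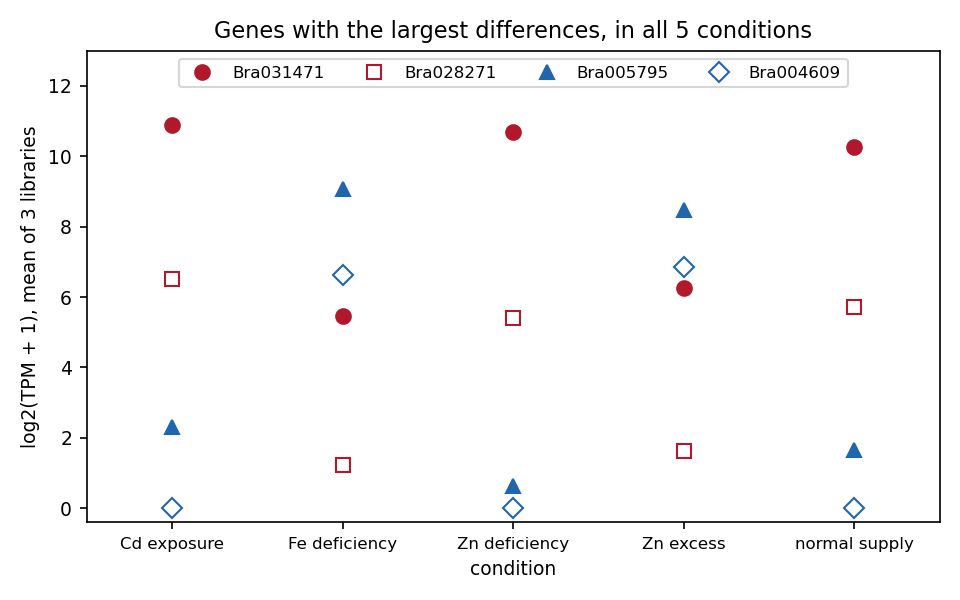
Levels of the 2 genes with the largest positive differences (red) and the 2 with the largest negative differences (blue) in the 5 conditions, as log2(TPM + 1) of the deposited mean of 3 libraries. In all 4 genes Cd exposure lies with Zn deficiency and normal supply, and Fe deficiency lies with Zn excess.

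Of the genes ranked 3 to 10 in each direction, the higher ones shared the arrangement of the named genes and the lower ones did so in part. The 8 higher genes differed by 3.67 to 5.01 on the log2 scale, with 36.2 to 1122 TPM under Cd exposure and 1.41 to 52.2 TPM under Fe deficiency. In all 8 the normal supply value (21.3 to 1255 TPM) was nearer Cd exposure on the log2(TPM + 1) scale, as was the Zn deficiency value (23.0 to 1332 TPM), and in all 8 the Zn excess value (2.28 to 183 TPM) was nearer Fe deficiency. The 8 lower genes differed by -5.47 to -4.23, with 0.405 to 5.61 TPM under Cd exposure and 26.5 to 180.4 TPM under Fe deficiency. Normal supply (0.438 to 39.4 TPM) was nearer Cd exposure in 5 of them, Zn deficiency (0 to 217 TPM) in 4 and Zn excess (3.04 to 109 TPM) in 1. All 16 genes had an adjusted p under 0.05 (limma; the largest was 0.000298).

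Where the low condition of a gene held few enough whole tags, the tags of its 3 libraries could be solved. This was so for 56 of the 1067 lower genes, whose Cd exposure libraries summed to at most 40 tags. The median of the highest Cd exposure library was 2.44 TPM and that of the lowest 0.879 TPM, against a median Fe deficiency mean of 11.2 TPM. For the higher genes, 11 of 196 could be solved in Fe deficiency. The Cd exposure means of these genes had a median of 13.2 TPM, and the highest Fe deficiency library of each had a median of 2.18 TPM. Since the genes were chosen as 2-fold apart and low in 1 condition, these values only describe how the tags fell among the libraries of the low condition.

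To place the differences, each gene's level in another condition was set on the line between its Cd exposure value (0%) and its Fe deficiency value (100%) on the log2(TPM + 1) scale. The other tables took no part in choosing the genes, and a general shift between tables moves their positions. Among the 10807 genes averaging at least 5 TPM over all 5 conditions, Cd exposure minus normal supply had a median of -0.073. Fe deficiency minus normal supply had a median of 0.168 in the same genes. Normal supply was thus nearer Cd exposure in these general medians too. For none of the other conditions is a share over all genes given beside the percentages below. For the 196 higher genes, normal supply had a median position of 27.4%, and it was nearer Cd exposure in 144 genes (73.5%). For the 1067 lower genes the median position was 44.0%, and normal supply was nearer Cd exposure in 645 (60.4%). Normal supply lay between the 2 conditions in 78.1% of the higher genes and 91.4% of the lower genes. Zn excess did so in 79.1% of the higher and 83.7% of the lower genes, and Zn deficiency in 58.7% and 72.8%. The genes were chosen for a wide gap between Cd exposure and Fe deficiency, so any other condition tends to fall between them. These shares therefore do not test where normal supply lies. With size factors over the 5 tables, normal supply was nearer Cd exposure in 66.4% of 378 higher genes and 57.7% of 697 lower genes. These genes were called anew with size factors and are not the same sets.

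Counted by 2-fold steps from normal supply, Fe deficiency stood apart more often than Cd exposure. Of the 196, Fe deficiency alone was at least 2-fold from normal supply in 88, Cd exposure alone in 16, both in 4 and neither in 88. Of the 1067 lower genes, Fe deficiency alone was 2-fold apart in 311, Cd exposure alone in 142, both in 76 and neither in 538. Among all 10825 genes, Fe deficiency alone was 2-fold from normal supply in 476 (4.4%), Cd exposure alone in 230 (2.12%), both in 98 (0.905%) and neither in 10021 (92.6%). In the genes counted under neither, departures of less than 2-fold from normal supply added up to the difference.

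**Figure D3:**
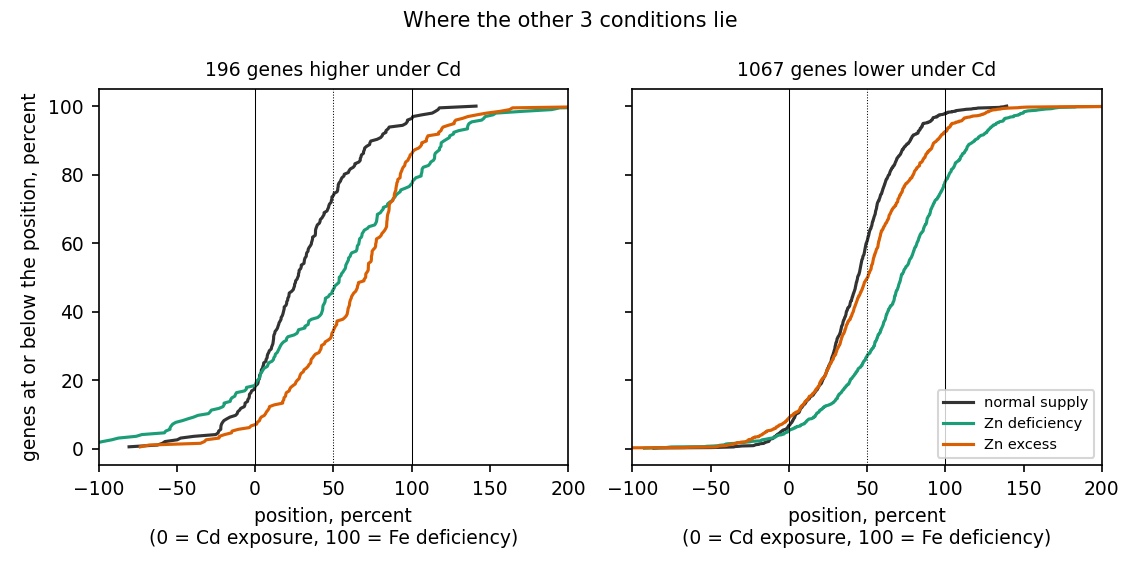
Cumulative share of the 196 genes higher and the 1067 genes lower under Cd exposure by the position of normal supply, Zn deficiency and Zn excess between Cd exposure (0) and Fe deficiency (100), in percent of the log2(TPM + 1) difference; the dotted line marks 50. Normal supply lies farthest left among the higher genes (median 27.4%), and Zn deficiency farthest right among the lower genes (median 71.7%).

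The 2 Zn conditions lay differently in the higher and the lower genes. Over the 10807 genes, the median against Zn deficiency was -0.073 for Cd exposure and 0.177 for Fe deficiency. Against Zn excess these medians were -0.155 for Cd exposure and 0.091 for Fe deficiency. By the general medians, Zn deficiency was thus nearer Cd exposure and Zn excess nearer Fe deficiency, and these offsets enter the percentages. Among the higher genes, Zn excess was nearer Cd exposure in 67 of 196 (34.2%) and Zn deficiency in 91 (46.4%). Among the lower genes, Zn excess was nearer Cd exposure in 530 of 1067 (49.7%) and Zn deficiency in 286 (26.8%). In 236 of the lower genes (22.1%) Zn deficiency lay beyond the Fe deficiency value. The Zn deficiency libraries had the widest recovered spread of the series, with a coefficient of variation of 40.7% at 5 to 30 TPM.

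The placement was sharper for larger differences in the higher genes. Of the 33 genes at least 4-fold higher under Cd exposure, normal supply was nearer Cd exposure in 29 (87.9%), Zn deficiency in 28 (84.8%) and Zn excess in 2 (6.06%). Of the 19 genes at least 8-fold higher, the numbers were 17, 17 and 1. Of the 197 genes at least 4-fold lower, normal supply was nearer Cd exposure in 136 (69.0%), Zn deficiency in 40 (20.3%) and Zn excess in 114 (57.9%). Of the 48 genes at least 8-fold lower, these numbers were 37, 17 and 19.

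**Figure D4:**
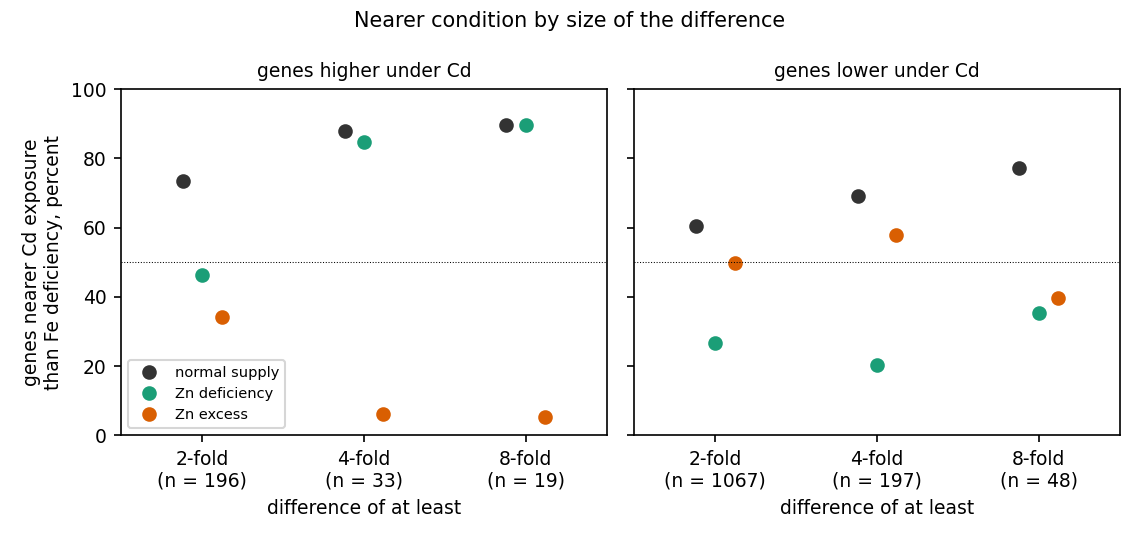
Percentage of genes whose level in normal supply, Zn deficiency or Zn excess was nearer Cd exposure than Fe deficiency, for genes at least 2-fold, 4-fold and 8-fold higher or lower under Cd exposure; the dotted line marks 50%. Among genes at least 4-fold higher, normal supply and Zn deficiency are nearer Cd exposure in 87.9% and 84.8% and Zn excess in 6.06%.

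The combination of the 3 placements divided the called genes into a few larger groups. A placement counts only the side of the midpoint, whatever the distance, and no share over all genes is given for these arrangements. The most frequent among the higher genes was the arrangement of the 4 named genes, with normal supply and Zn deficiency nearer Cd exposure and Zn excess nearer Fe deficiency. It held 58 of 196 genes (29.6%), with medians of 41.6 TPM under Cd exposure, 8.53 TPM under Fe deficiency, 36.0 TPM under Zn deficiency, 10.5 TPM under Zn excess and 39.7 TPM on normal supply. In another 41 higher genes (20.9%) the other 3 conditions were all nearer Fe deficiency, and in 29 (14.8%) all were nearer Cd exposure.

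For the lower genes, the most frequent arrangement was that of all 3 other conditions past the midpoint towards Fe deficiency. By 2-fold steps from normal supply, however, Cd exposure alone was apart in 142 of the 1067 and Fe deficiency alone in 311. In 287 of 1067 (26.9%) all 3 other conditions were nearer Fe deficiency, with medians of 6.57 TPM under Cd exposure, 20.6 TPM under Fe deficiency, 19.9 TPM under Zn deficiency, 16.4 TPM under Zn excess and 15.1 TPM on normal supply. In 247 (23.1%) Zn deficiency alone was nearer Fe deficiency, with medians of 5.60 TPM under Cd exposure, 22.3 TPM under Fe deficiency, 15.3 TPM under Zn deficiency, 8.15 TPM under Zn excess and 8.96 TPM on normal supply. All 3 other conditions were nearer Cd exposure in 167 (15.7%). The arrangement of the 2 lower named genes, with only Zn excess nearer Fe deficiency, held 77 (7.22%). Its medians were 6.66 TPM under Cd exposure, 24.9 TPM under Fe deficiency, 7.98 TPM under Zn deficiency, 19.8 TPM under Zn excess and 7.92 TPM on normal supply.

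Genes set apart by Zn supply were then followed in the direct comparison, since these lists and the difference between Cd exposure and Fe deficiency have no table in common. Of the 85 genes compared that were at least 2-fold higher under Zn excess than on normal supply, 48 (56.5%) were at least 2-fold lower under Cd exposure than under Fe deficiency and 1 was higher, where 9.86% and 1.81% of all genes were. Their median difference was -1.29, against -0.24 for all genes, and 75 of 85 lay below 0. At an adjusted p under 0.05 (limma), 58 were lower and 1 was higher. Their median level was 8.52 TPM under Cd exposure and 22.2 TPM under Fe deficiency. The lists are nevertheless tied to the 2 conditions through the minimum of 5 TPM, which a gene low elsewhere could pass through its Fe deficiency value alone. Without that minimum the list had 200 genes, of which 85 (42.5%) were at least 2-fold lower and 4 higher, with a median of -0.742, against 6.19% lower, 1.07% higher and a median of -0.153 for all 27239 genes.

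The 118 genes at least 2-fold lower under Zn excess than on normal supply leaned the other way, but not all of them. Of these, 55 (46.6%) were at least 2-fold higher under Cd exposure than under Fe deficiency and 16 (13.6%) at least 2-fold lower. The shares over all genes compared were 1.81% higher and 9.86% lower, so both shares in the list were larger. The median difference was 0.87, against -0.24 for all genes. At an adjusted p under 0.05 (limma), 65 were higher and 21 lower. Their median level was 25.9 TPM under Cd exposure and 13.7 TPM under Fe deficiency. Without the minimum, 64 of 166 genes (38.6%) were higher by 2-fold or more and 20 (12.0%) lower, with a median of 0.611. Over all 27239 genes, 1.07% were higher and 6.19% lower. The Zn excess list holds all 4 named genes, 2 in each direction.

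**Figure D5:**
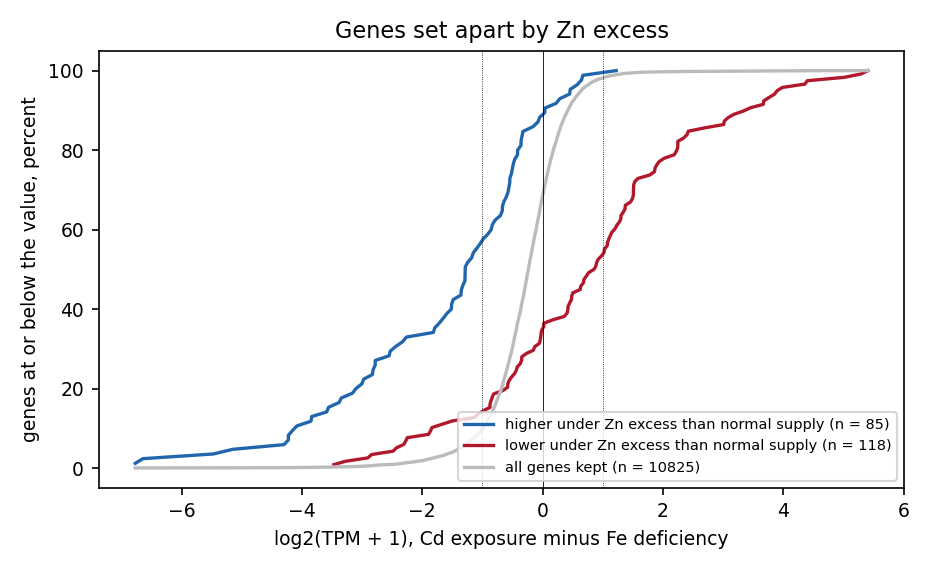
Cumulative share of genes by their difference in log2(TPM + 1), Cd exposure minus Fe deficiency, for the 85 genes higher and the 118 genes lower by 2-fold or more under Zn excess than on normal supply, and for all 10825 genes; dotted lines mark 2-fold. The first list is shifted to the left (median -1.29) and the second to the right (median 0.87) of all genes (median -0.24).

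Genes set apart by Zn deficiency also differed between Cd exposure and Fe deficiency. Of the 268 genes at least 2-fold higher under Zn deficiency than on normal supply, 149 (55.6%) were at least 2-fold lower under Cd exposure than under Fe deficiency and 5 higher, with a median difference of -1.24. Of the 68 genes at least 2-fold lower under Zn deficiency, 21 (30.9%) were at least 2-fold higher under Cd exposure and 5 lower, with a median of 0.39. Among all genes compared, 9.86% were lower and 1.81% higher. The tie through the 5 TPM minimum holds for these lists too. Without it, 204 of 443 genes higher under Zn deficiency (46.0%) were lower under Cd exposure, with a median of -0.875. Of 95 genes lower under Zn deficiency, 25 (26.3%) were then higher under Cd exposure, with a median of 0.329. The shares over all 27239 genes were 6.19% lower and 1.07% higher. In the direct contrast of Zn excess with Zn deficiency, 193 genes were at least 2-fold higher under Zn excess, and 12 of them (6.22%) were higher and 41 (21.2%) lower under Cd exposure than under Fe deficiency (median -0.13). Of the 337 genes at least 2-fold lower under Zn excess than under Zn deficiency, 51 (15.1%) were higher and 169 (50.1%) lower under Cd exposure (median -1.0), so genes lower under Zn excess leaned the other way when Zn deficiency replaced normal supply. Without the minimum, 63 of 596 such genes (10.6%) were higher and 252 (42.3%) lower (median -0.709). Of 345 genes higher under Zn excess than under Zn deficiency, 18 (5.22%) were then higher and 67 (19.4%) lower. Across all 10825 genes, which are not independent replicates, the difference between Cd exposure and Fe deficiency correlated with that between Zn excess and normal supply at r = -0.28 (Spearman's rho -0.14) and with that between Zn deficiency and normal supply at r = -0.40 (rho -0.39), and with that between Zn excess and Zn deficiency at r = 0.12 (rho 0.27). These are descriptions across genes, and the 3 Zn contrasts share tables with each other.

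Libraries within a condition differed for the same genes. The recovered difference between libraries, in percent of a gene's level and positive where libraries with more clean tags were higher, had a median of 13.7% in Fe deficiency for the 196 higher genes, -0.36% for the 1067 lower genes and -1.95% for all genes compared. In Cd exposure these medians were 7.79%, 7.43% and 6.34%. The coefficient of variation between Fe deficiency libraries was 39.7% in the higher genes, 28.7% in the lower genes and 23.4% in all genes. In Zn excess, the lower genes had a median of 18.2%, against 5.43% for all genes. The part of these library differences in the results was not tested.

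Among the 10 pairs of tables, set side by side on the 10807 genes with a mean of at least 5 TPM over all 5, Cd exposure and Fe deficiency were 2-fold apart in 1247 genes. Only Cd exposure and Zn deficiency were farther apart by this count, in 1428 genes, and the other 8 pairs were 2-fold apart in 216 to 710. The spread between libraries differs between tables, pairs share tables, and the differences between these counts were not tested.

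At the edges of the thresholds, the gene just inside the 5 TPM minimum had 4.76 TPM under Cd exposure and 5.24 TPM under Fe deficiency, and the gene just outside had 2.83 TPM under Cd exposure and 7.17 TPM under Fe deficiency.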

How the data were processed

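Digital gene expression libraries count short tags per gene. Per the file headers, the deposited columns hold gene identifiers, clean tag numbers and TPM. The tag numbers, as deposited, are estimated counts: 77.5% of those in Cd exposure and 76.1% of those in Fe deficiency became whole when multiplied by 3, to within 0.0001 tag (wider for large values), as means over 3 libraries would. The deposited TPM values are tags per 1000000 clean tags of the authors' libraries, and were used as they stand. No mapping tool or annotation is named, and the build is also not given in the sources used here. Genes absent from a table were set to 0.

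Differences are log2(TPM + 1), Cd exposure minus Fe deficiency, which understates changes of low genes. With 1 table per condition, calls are by size (2-fold). The TPM of genes with 1 tag in 1 library took 3 common values per table (95.1% of 286 such genes in Cd exposure and 95.2% of 271 in Fe deficiency), which give the library totals. Subtracting TPM times the mean library total from the mean tag number then leaves a weighted difference between libraries, 1 degree of freedom per gene and table. Its square was scaled by its running median on level (501 genes), averaged over the 5 tables and moderated using limma 3.58.1 under R 4.3.3, to a median total of 12.2 degrees of freedom. In Cd exposure the library with the middle total has 1.53% of the weight of the heaviest, so its deviations are largely missed. The spread of a gene that varies mainly in these 2 conditions is understated. The test was checked on simulated data in which genes were independent and every table had the same spread beyond counting. The recovered spread differs between these tables, so the check does not cover that. Tables of means allow no count model. The named genes are the 2 largest differences in each direction. The members, lists and tests were chosen with earlier results of these data known.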

Additional observations from a re-analysis of the deposited data

How the results depend on the processing

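The 4 named genes kept their direction and an adjusted p under 0.05 (limma) in all 12 alternatives. Of 58 alternatives of the other results, 28 stayed within 1.5 times the count, inside the 95% binomial interval of the percentage, or within 1 median SE (0.21) of the median, and no median over a Zn excess list changed sign. Counts are higher then lower under Cd exposure. A pseudocount of 5 gave 107 and 606 genes 2-fold apart, a mean of at least 20 TPM, which tests fewer genes, 84 and 381, the 4-fold threshold 33 and 197, and size factors 378 and 697. Without a filter 1687 were lower, and among genes without fractional tags, a smaller set, 707 were lower. At an adjusted p under 0.05 (limma), 331 and 894 genes passed at 20 TPM, 1273 and 1351 with size factors, and 414 and 1625 without fractional tags. Size factors set the median difference to -0.00019. Normal supply was nearer Cd exposure in 56.3% of the lower genes with a pseudocount of 0.1, 70.0% with 5 and 69.0% at 4-fold, and in 66.4% of the higher genes with size factors and 87.9% at 4-fold. Each of these percentages is over the genes called in its own setting. Genes higher under Zn excess had a median difference of -1.07 with a pseudocount of 0.1, -0.742 without a filter, -1.62 at 20 TPM, -1.05 with size factors and -3.56 at 4-fold, and genes lower under Zn excess 1.11 with a pseudocount of 5, 0.611 without a filter and 3.13 at 4-fold. Beyond smaller gene sets, the cause was not tested. No paired analysis was possible because the tables hold means over the replicates, and no replicate could be left out.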
